A study of Mus musculus and Homo sapiens with 40 samples.

Results

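The DNA sites of the 2 CEBPA isoforms, p30 and p42, were compared through the anti-ER chromatin immunoprecipitation (ChIP-seq) lists of 2 mouse HPC-7 lines. Every peak of both lists on chromosomes 1 to 19 and X was kept, which gave 33952 sites in p30 cells and 23210 in p42 cells, together 57162 of the 957186 peaks that the 10 mouse lists of the series hold on these chromosomes. A site that overlapped a site of the other line by at least 1 bp was called shared, and the remaining sites p30 only or p42 only. This left 14579 p30-only sites, 42.9% of the p30 list, and 3693 p42-only sites, 15.9% of the p42 list. The series holds 40 samples, with input libraries, histone marks H3K27ac and H3K4me1, an antibody against CEBPA itself, and 1 human leukemia line that was not used here.

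HPC-7 cells are hematopoietic progenitors of the mouse that grow with stem cell factor. Both lines were transduced with a retrovirus that carries GFP and either CEBPA-p30-ERT2 or CEBPA-p42-ERT2, and GFP-positive cells were sorted. The ERT2 part is a fragment of the human estrogen receptor that keeps a fused protein out of the nucleus until 4-hydroxytamoxifen is added, and the anti-ER antibody binds this part. The labels give the anti-ER samples of both lines as untreated, and the study's methods state that fusion lines received 4-hydroxytamoxifen before experiments. Each anti-ER list came from 1 library, so no difference between the lists has a replicate check, and the isoform cannot be told apart from the transduced line that carries it. Intervals given below are 95% Wilson intervals that cover counting error of sites only. The read depth of the libraries was not given in the lists.

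CEBPA is a basic leucine zipper transcription factor that drives granulocyte and monocyte differentiation, and it binds as a dimer to the sequence TTGCNNAA. The p42 form is the full-length protein. The p30 form starts at an internal start codon, lacks an N-terminal transactivation part, keeps the DNA-binding part and is the form favoured by N-terminal mutations in acute myeloid leukemia. Open chromatin at active promoters and enhancers carries H3K27ac, and H3K4me1 marks enhancers more broadly.

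The progenitor identity of both lines was checked by H3K27ac peaks over gene starts. All 6 progenitor markers (Kit, Cd34, Gata2, Tal1, Lmo2 and Runx1) had such a peak in both lines. Of the mast cell markers, Cpa3 had a peak in both lines, and Fcer1a and Ms4a2 had none. No lymphoid marker had a peak, and of the erythroid and the liver and fat markers Klf1 and Adipoq had one, in p42 cells alone, with a fold of 2.66 and 3.07.

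The sequences under the best-ranked sites of each class are shown to let the classes be compared at their strong end. The 4 best-ranked sites of each class with a fold enrichment of at least 10 are printed as 101 bases of the plus strand of GRCm39 (mm39) centred on the peak summit, with letters taken from the genome. Each is named by its nearest protein-coding gene. Capitals mark matches, on either strand, to CEBP (TTGCNNAA), CEBP:ATF4 (TGATGCAA), PU.1 (GAGGAAGT), RUNX (AACCACA) or the letters AGATAAG, which GATA factors bind. The shared sites were the following.
Akap9, chr5:4103815-4103915: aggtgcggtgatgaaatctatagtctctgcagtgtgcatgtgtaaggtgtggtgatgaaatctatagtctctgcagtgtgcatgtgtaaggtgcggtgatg
Itch, chr2:154949305-154949405: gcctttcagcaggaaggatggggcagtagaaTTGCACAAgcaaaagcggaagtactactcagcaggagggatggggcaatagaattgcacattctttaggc
Fer, chr17:64194137-64194237: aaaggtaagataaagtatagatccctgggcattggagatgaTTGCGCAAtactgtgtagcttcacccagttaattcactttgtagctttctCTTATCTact
Raet1e, chr10:22076277-22076377: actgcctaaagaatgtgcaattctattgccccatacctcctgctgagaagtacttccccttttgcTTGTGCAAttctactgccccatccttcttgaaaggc

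The p30-only sites were these.
Nmnat3, chr9:98215574-98215674: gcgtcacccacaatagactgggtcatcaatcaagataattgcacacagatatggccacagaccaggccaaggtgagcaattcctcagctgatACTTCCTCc
Cacna1b, chr2:24638115-24638215: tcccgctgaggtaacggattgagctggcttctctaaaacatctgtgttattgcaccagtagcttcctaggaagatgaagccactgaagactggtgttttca
Cryzl1, chr16:91492205-91492305: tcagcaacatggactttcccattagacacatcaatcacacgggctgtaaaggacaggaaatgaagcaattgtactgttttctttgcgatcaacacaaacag
Ppm1b, chr17:85188625-85188725: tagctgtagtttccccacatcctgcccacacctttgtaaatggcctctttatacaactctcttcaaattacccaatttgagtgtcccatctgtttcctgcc

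The p42-only sites were these.
Dclre1a, chr19:56523619-56523719: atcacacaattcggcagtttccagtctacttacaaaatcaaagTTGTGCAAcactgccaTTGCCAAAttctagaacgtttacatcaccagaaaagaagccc
Mrps35, chr6:146963314-146963414: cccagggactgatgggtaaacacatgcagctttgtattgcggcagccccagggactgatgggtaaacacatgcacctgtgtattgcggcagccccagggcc
Cpap, chr14:56792361-56792461: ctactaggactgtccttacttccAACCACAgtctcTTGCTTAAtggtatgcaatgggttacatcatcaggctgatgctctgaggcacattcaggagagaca
Cep85l, chr10:53283682-53283782: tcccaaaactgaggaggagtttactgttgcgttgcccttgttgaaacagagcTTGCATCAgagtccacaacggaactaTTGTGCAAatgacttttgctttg

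The shared site in an intron of Fer, a tyrosine kinase gene, held the perfect palindrome TTGCGCAA beside its summit and reached a fold of 224 over input in p30 cells and 198 in p42 cells. The site near Itch, a ubiquitin ligase gene, lay over an exon of the long noncoding RNA Gm75468, with a fold of 192 and 84.6. The site in an intron of Raet1e had a fold of 136 and 68.4, and the windows printed for it and for Itch held 1 CEBP match each. These windows hold nearly the same sequence on opposite strands, so they are not independent examples. The Akap9 window held a repeated unit and none of the listed motifs, with a fold of 27.9 and 19.8. The Fer, Itch, Raet1e and Akap9 sites all had an anti-CEBPA site in both lines.

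None of the 4 p30-only windows held the CEBP letters, although a wider 200 bp window held them at Cryzl1. The strongest p30-only site, in an intron of Nmnat3, an enzyme gene of NAD synthesis, had a fold of 25.5, a PU.1 match and no anti-CEBPA site in either line. The site in an intron of Cacna1b, a neuronal calcium channel gene, had a fold of 21.9 and no anti-CEBPA site. The exonic site of Cryzl1 and the intergenic site near Ppm1b, a phosphatase gene, had folds of 16.9 and 18.5 and anti-CEBPA sites in both lines, with anti-CEBPA folds of 10.6 and 8.31 in p30 cells against 6.64 and 3.92 in p42 cells. The next p30-only sites lay near Traf6, the ubiquitin ligase of Toll-like receptor signalling (fold 19.4, in an intron of Prr5l), near Tedc1 (19.8) and Pbp2 (19.8), and in the promoter of Dpagt1 (19.1, with its summit 52 bp upstream of the start), which encodes the first enzyme of N-glycan assembly.

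The p42-only windows held CEBP letters at 3 of the 4 sites. The site in an intron of Dclre1a, a DNA crosslink repair gene, had a fold of 23.8 and an anti-CEBPA fold of 22.6 in p42 cells against 7.59 in p30 cells. The exonic site of Mrps35, a mitochondrial ribosome gene, and the intronic site of Cpap, a centriole gene, had folds of 21.7 and 21.2. The Mrps35 window held a repeated unit and none of the listed motifs. The site near Cep85l had a fold of 19.4 with a CEBP match and a CEBP:ATF4 match. At Mrps35, Cpap and Cep85l the anti-CEBPA site was found in p42 cells alone, with anti-CEBPA folds of 16.7, 15.3 and 13.4. The best p42-only site by p-value, in an intron of Chl1, had a fold of only 1.92 and was left out of the printed sequences.

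The one-line sites were weak sites of their own lists. The median fold was 5.25 for p30-only sites and 9.73 for shared sites of the p30 list, and 5.04 for p42-only sites against 7.92 for shared sites of the p42 list. The highest fold among one-line sites was 25.5 in p30 cells and 23.8 in p42 cells, beside 224 and 198 among shared sites. Of 3190 p30 sites with a fold of 20 or more, 2 were p30 only, and of 2063 such p42 sites 3 were p42 only. Below a fold of 4, 18.6% of p30 sites (17.2 to 20) and 53.8% of p42 sites (51.2 to 56.3) were shared. From a fold of 12 to 20, 97.6% and 98.7% were shared.

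**Figure D1:**
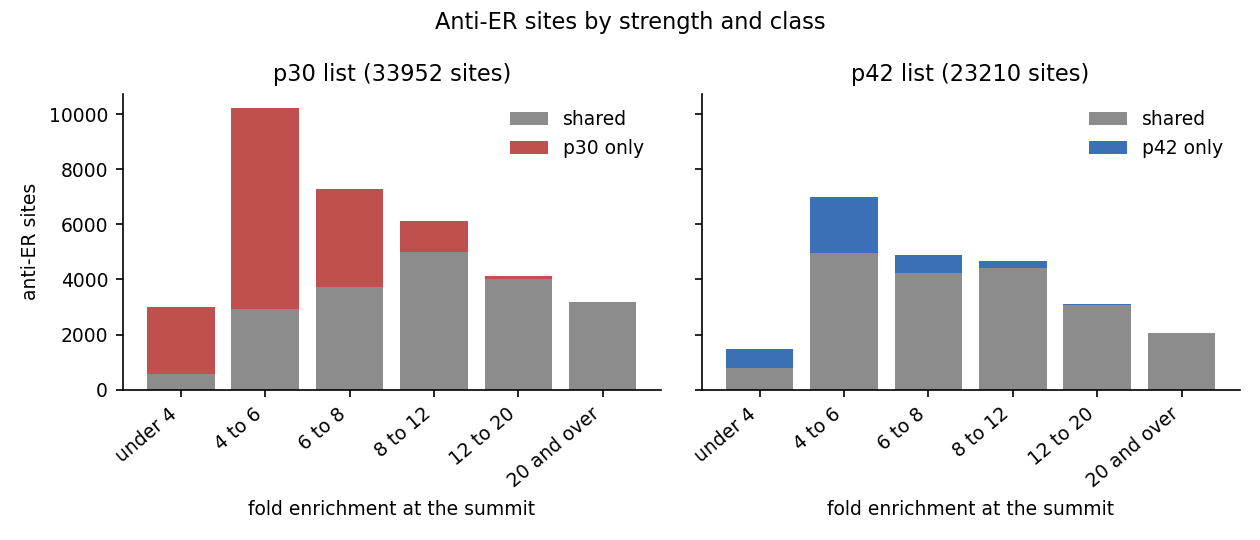
Number of anti-ER sites by fold enrichment over input at the summit, for the p30 and the p42 list, split into shared and one-line sites. The shared part climbs from 18.6% of sites under a fold of 4 to 99.9% at 20 and over in p30 cells. In p42 cells it climbs from 53.8% to 99.9%.

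The p30 list is the longer one, so the classes were also counted with the 23210 best-ranked sites of each list. There, 6247 sites were p30 only (26.9% of the sites) and 6108 were p42 only (26.3%). Because overlaps pair nearly 1 to 1, equal lists give nearly equal one-line counts by construction, so these counts say nothing of an excess in either line. Between the lines, one-line sites were seldom near misses: 356 of the p30-only sites (2.44%) and 176 of the p42-only sites (4.77%) had a site of the other line within 500 bp, and the median gap was 24886 bp and 12565 bp. At the edge of the rule, 6 p30 and 7 p42 sites were shared by less than 50 bp of overlap (median fold 3.26 and 4.01), and 3 sites of each list missed by less than 50 bp (4.41 and 4.08).

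Shared sites were also higher in p30 cells. Over 19529 overlapping pairs, the median log2 ratio of the p30 fold to the p42 fold was 0.29, and the p30 fold was the higher one in 71.4% of pairs. From the 5th to the 95th percentile the log2 ratio ran from -0.69 to 1.19. A fold over input depends on each library's depth and background, which cannot be told apart from the isoform here. The p30-only share lay between 37.7% (chromosome 19) and 46.9% (X) over the chromosomes, and the p42-only share between 13.9% (chromosome 1) and 20.7% (X).

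Promoters held a larger share of p30-only than of p42-only sites. Promoters, taken as 1000 bp upstream to 100 bp downstream of a protein-coding transcript start, held 7.73% of p30-only sites (7.31 to 8.18), 7.32% of shared p30 sites (6.97 to 7.7) and 4.22% of p42-only sites (3.62 to 4.92). Introns held 52.1%, 55.1% and 56.8% and exons 9.23%, 10.2% and 11.3% of these classes. With equal site numbers the p30-only share exceeded the p42-only share by 1.36 percentage points (0.535 to 2.18), beside 3.51 in the full lists. Among the weakest 10% of the p30 list by rank, 11.7% of the p30-only sites were in promoters, beside 5.21% of the shared ones, but in the next weakest 10% the shares were 7.16% and 7.42% and in the one before 7.28% and 6.52%. Summits over 50 kb from any protein-coding start made up 36.4% of p30-only, 31.7% of shared and 30.3% of p42-only sites.

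An antibody against CEBPA itself gave 31823 sites in p30 cells and 47489 in p42 cells, in 1 library each, and this readout was not used by the rule. Of the shared p30 sites, 68.8% had an anti-CEBPA site in both lines and 12% in neither. Of the one-line sites, 46.0% of p30-only (6700 sites) and 46.3% of p42-only sites (1711) had no anti-CEBPA site in either line. At like rank in the p30 list this gap was small or absent for anti-CEBPA of p30 cells only among the weaker sites. The list was cut by rank into bins of 10%, with bin 1 the strongest. In bins 2 to 6, 65%, 60.8%, 60.9%, 59.2% and 54.8% of p30-only sites had an anti-CEBPA site of p30 cells. For shared sites these shares were 91%, 81.9%, 72.8%, 65.6% and 58.3%. From the seventh to the last 10% of that list, 49.9%, 41.3%, 29.8% and 14% of p30-only sites had such a site, beside 49.5%, 38.1%, 29.9% and 16.2% of shared ones. For anti-CEBPA of p42 cells the gap stayed among these weak sites. In bins 8 to 10 it lay at 51.3%, 40.2% and 21.8% of p30-only and 67.2%, 59.1% and 42% of shared sites. In the last 10% of the p42 list, 28.8% of p42-only and 43.9% of shared sites had an anti-CEBPA site of p42 cells. Of the p42-only sites, 33.8% (32.3 to 35.3, 1247 sites) had one in p42 cells alone and 2.06% (76 sites) in p30 cells alone. Of the p30-only sites, 7.23% (6.82 to 7.66, 1054 sites) had one in p30 cells alone and 13.8% (2018 sites) in p42 cells alone.

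The length of the anti-CEBPA lists set part of this pattern. When the same number of anti-CEBPA sites was taken from each line, 11.8% of p30-only sites (1717) had one in p30 cells alone and 7.42% in p42 cells alone, so that the order turned. For p42-only sites the shares were then 18.9% (699 sites) in p42 cells alone and 4.31% in p30 cells alone. Thus p42-only sites were found again in their own line more often than in the other with either choice, and p30-only sites with equal lists only.

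**Figure D2:**
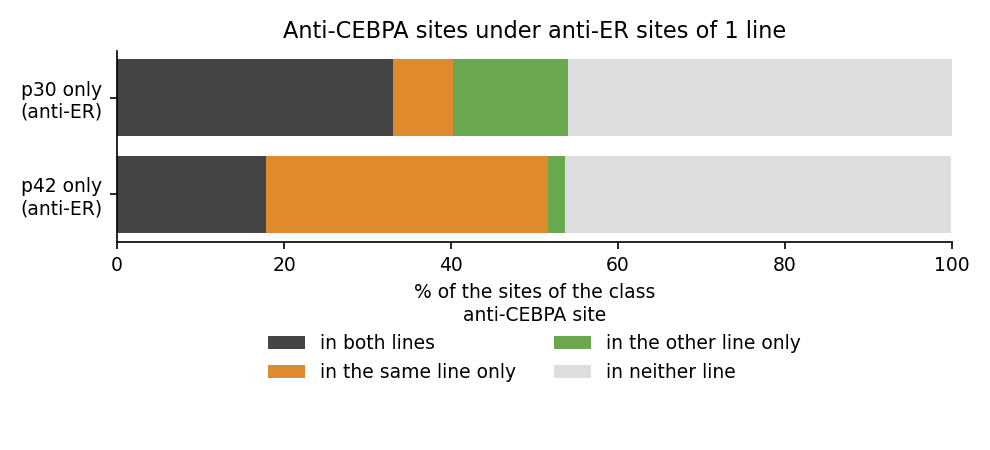
Percent of the anti-ER sites of a class that have an anti-CEBPA site in both lines, in p30 cells alone, in p42 cells alone or in neither. Of p30-only sites 46.0% and of p42-only sites 46.3% have no anti-CEBPA site in either line.

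The 1054 p30-only sites with anti-CEBPA in p30 cells alone carried more promoter and active chromatin marks than their p42 counterparts. Of them, 14.2% (12.3 to 16.5) were in promoters and 53.3% in H3K27ac peaks of p30 cells, whereas 3.37% of the 1247 such p42-only sites were in promoters and 34.3% in H3K27ac peaks of p42 cells. In the line without the site, H3K27ac peaks lay under 52.1% of the former (p42 cells) and 20.1% of the latter (p30 cells). CEBP letters were under 34.3% of the former and 50.7% of the latter. The 6700 p30-only sites without anti-CEBPA resembled the first group, with 11.1% in promoters, 54.9% in H3K27ac peaks of p30 cells, 26.9% with CEBP and 13.5% with RUNX letters. The 4807 p30-only sites with anti-CEBPA in both lines stood apart, with 3.06% in promoters, 9.05% in H3K27ac peaks, 52.6% with CEBP and 11.3% with CEBP:ATF4 letters.

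The best-ranked p30-only sites with anti-CEBPA in p30 cells alone lay near Tedc1 (anti-ER fold 19.8, anti-CEBPA fold 9.56), Rab11fip3 (14.5 and 7.56), Enox1 (16.3 and 7.59), Hivep3 (16.6 and 8.85) and Macroh2a1 (15.8 and 12.1), which encodes a histone variant. Insig1, a brake on cholesterol synthesis, followed with 15.8 and 2.94. On the p42 side, beside Mrps35, Cpap and Cep85l, they lay near Trim52 (19.1 and 13.4), Cdk5rap2 (17 and 13.9), a centrosome gene, Actr3 (17.6 and 8.4), which encodes an actin-nucleating subunit, and Shmt1 (17.4 and 9.27), an enzyme gene of folate metabolism. Of the 8 best such p30-only sites 6 were in an H3K27ac peak of p30 cells, and of the 8 best p42-only sites 2 were in one of p42 cells.

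In untreated cells, H3K27ac differed between the lines at p42-only sites and hardly at p30-only sites. H3K27ac peaks, called on 3 pooled libraries per line, lay under 35.0% of p30-only sites in p30 cells and 34.3% in p42 cells. For p42-only sites the shares were 23.8% in p30 cells and 33.8% in p42 cells, and for shared sites 40.8% and 45.6%. Of p42-only sites, 12.1% (11.1 to 13.2) had H3K27ac in p42 cells alone and 2.17% in p30 cells alone, against 3.26% and 3.99% of p30-only sites. Within peaks of both lines, the median log2 ratio of the p30 to the p42 H3K27ac fold was -0.05 at p30-only sites, -0.33 at shared and -0.37 at p42-only sites.

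After 2 h of lipopolysaccharide (LPS, 100 ng/mL), which was given for the H3K27ac samples only, the order held, with a wider gap at p30-only sites. H3K27ac then lay under 36% (p30 cells) and 32.2% (p42 cells) of p30-only sites and under 23.7% and 30.0% of p42-only sites. It lay in p30 cells alone at 5.74% and in p42 cells alone at 1.93% of p30-only sites. For p42-only sites these shares were 3.06% and 9.34%. H3K4me1 peaks, called on 2 pooled libraries per line, covered 23.9% of p30-only sites in p30 cells and 17.3% in p42 cells, and 19.5% and 22.2% of p42-only sites. At p42-only sites the excess in p42 cells, 2.68 percentage points, turned to -0.0491 (-1.06 to 0.958) with equal site numbers. At shared sites the shares were 28.5% and 19.6%, so H3K4me1 covered p30-only and shared sites more often in p30 cells.

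**Figure D3:**
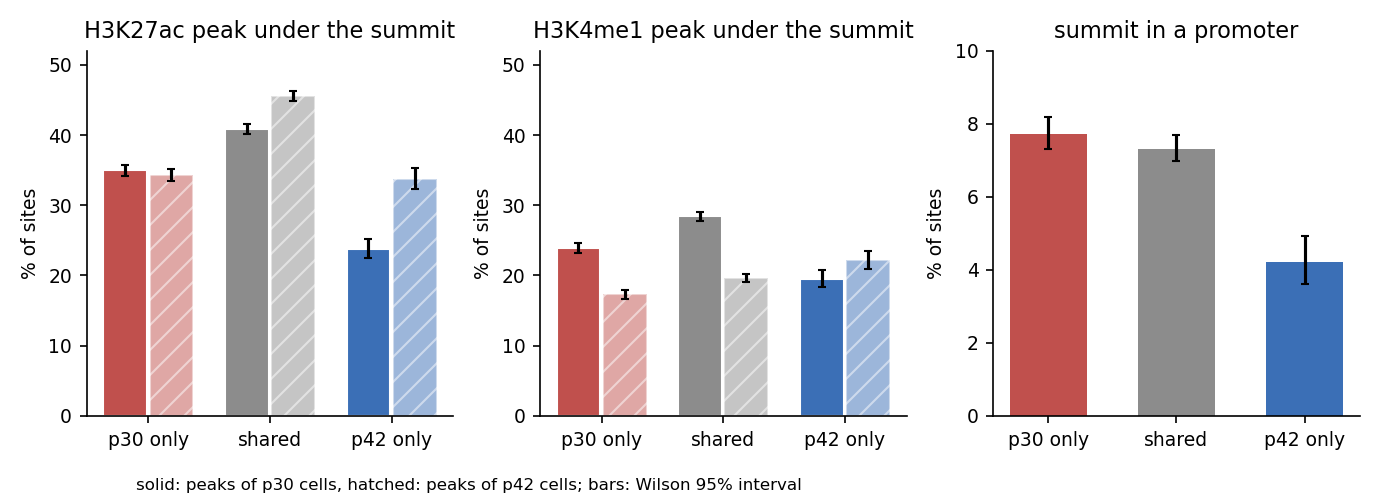
Percent of p30-only, shared and p42-only anti-ER sites whose summit lies in an H3K27ac or H3K4me1 peak of p30 and of p42 cells, with 95% Wilson intervals. In untreated cells, H3K27ac covers p30-only sites alike in both lines (35.0% and 34.3%) and p42-only sites more often in p42 cells (33.8% against 23.8%).

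Distal sites outside both marks formed the largest part of both lists, with 51.9% of p30 and 48.8% of p42 sites. They held CEBP letters most often, in 54.7% and 58.7%, compared with 37.5% and 43.9% of distal sites in H3K27ac. In p42 cells they were shared less often (81.4%) than promoter sites (90.2%), and in p30 cells 53.8% were shared, beside 55.7% of promoter sites and 61.8% of distal sites in H3K27ac.

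CEBP letters were common in every class. Within 200 bp centred on the summit, TTGCNNAA was found on either strand at 53.7% of shared p30 sites, 38.1% of p30-only (37.3 to 38.9) and 42% of p42-only sites, beside 8.38% to 8.72% of windows 5 kb away and 6.49% of all promoter starts. Among sites of like rank, as an unweighted mean of 9 bins of 10%, shared sites exceeded p30-only sites by 9.45 percentage points (7.68 to 11.2). The excess over p42-only sites was 1.75 (-1.19 to 4.7), an interval that spans 0. In the second 10% of the p30 list, with 60 p30-only sites, the letters lay at 25% of these and 57.1% of shared sites. In the sixth 10% the shares were 42.8% and 47.6%, and in the last 29.8% and 34.3%. The perfect palindrome TTGCGCAA, which the CEBP pattern also matches, lay under 4.12% of shared sites, 0.899% of p30-only and 0.596% of p42-only sites, and 85.9% of the p30 sites and 97.3% of the p42 sites that hold it were shared. The same CEBP letters read backwards (AANNCGTT) were at 2.54% to 2.77% of sites.

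Other motifs differed little in size. CEBP:ATF4 (TGATGCAA), the composite of a CEBP and an ATF4 site, was at 6.73% of p30-only, 6.39% of shared and 5.61% of p42-only sites, and at 0.57% of promoter starts. RUNX (AACCACA), the site of the blood factor RUNX1, was at 9.34%, 8.71% and 6.42%, and at 3.26% of promoter starts. PU.1 (GAGGAAGT) was at 4.61%, 5.05% and 3.57%, and AP-1 (TGANTCA), the Fos and Jun site, at 8.52%, 9.03% and 8.53%. GATA letters (AGATAAG) were at 3.3%, 3% and 2.92% of sites, close to their share 5 kb away (3.08% for p30-only sites). The estrogen response element, which the DNA-binding domain of the intact receptor recognises, was at 4 p30-only, 7 shared and 3 p42-only sites.

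**Figure D4:**
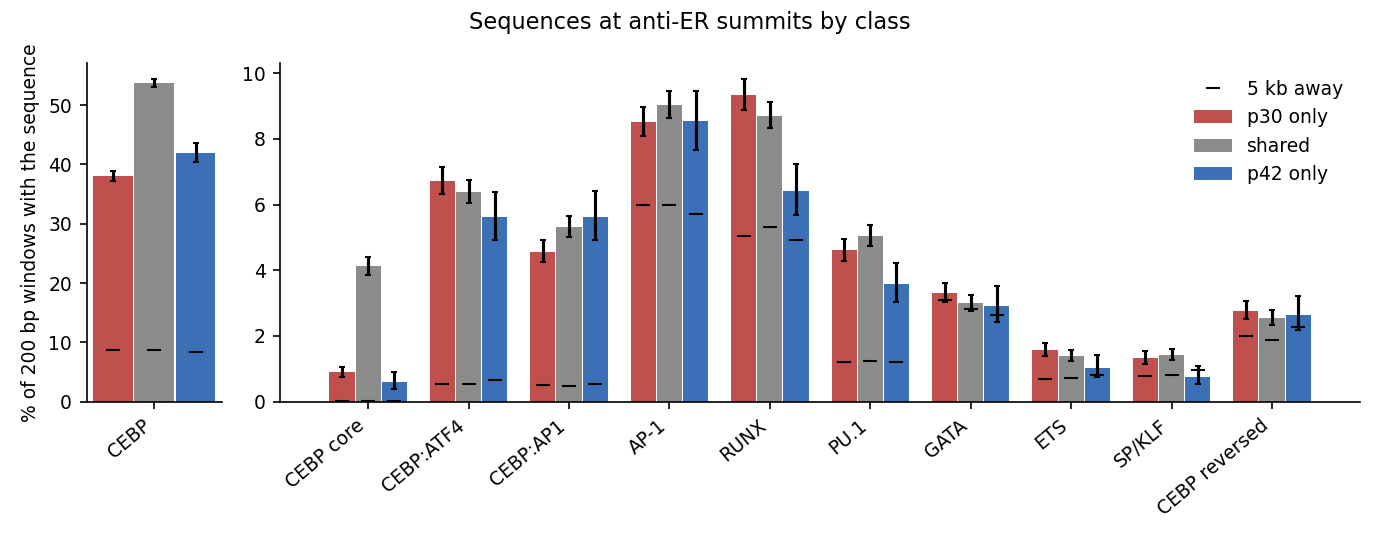
Percent of shared, p30-only and p42-only anti-ER sites with each motif within 200 bp centred on the summit, beside windows 5 kb away. CEBP letters stand highest, at 53.7%, 38.1% and 42%, and RUNX letters are at 9.34% of p30-only and 6.42% of p42-only sites.

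Target genes were counted over 21584 protein-coding genes. A promoter site was found in both lines at 1431 genes (6.63%), in p30 cells alone at 1068 (4.95%) and in p42 cells alone at 140 (0.649%). At 1057 of the 1068 and 130 of the 140 the promoter site itself was a one-line site, and at the others it overlapped a site of the other line whose summit lay outside the promoter. With equal site numbers the classes held 1283 (5.94%), 395 (1.83%) and 288 (1.33%) genes. Within 50 kb of a start, sites of both lines were found at 13415 genes (62.2%), of p30 cells alone at 2704 (12.5%) and of p42 cells alone at 501 (2.32%). Of 16 gene lists, 13 had more members with a promoter site in p30 cells alone than in p42 cells alone, and 8 had at equal site numbers, so the counts below follow the longer p30 list in part. Where a pair of folds is given for a gene, that of p30 cells stands first, and both are of its best-ranked promoter site.

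**Figure D5:**
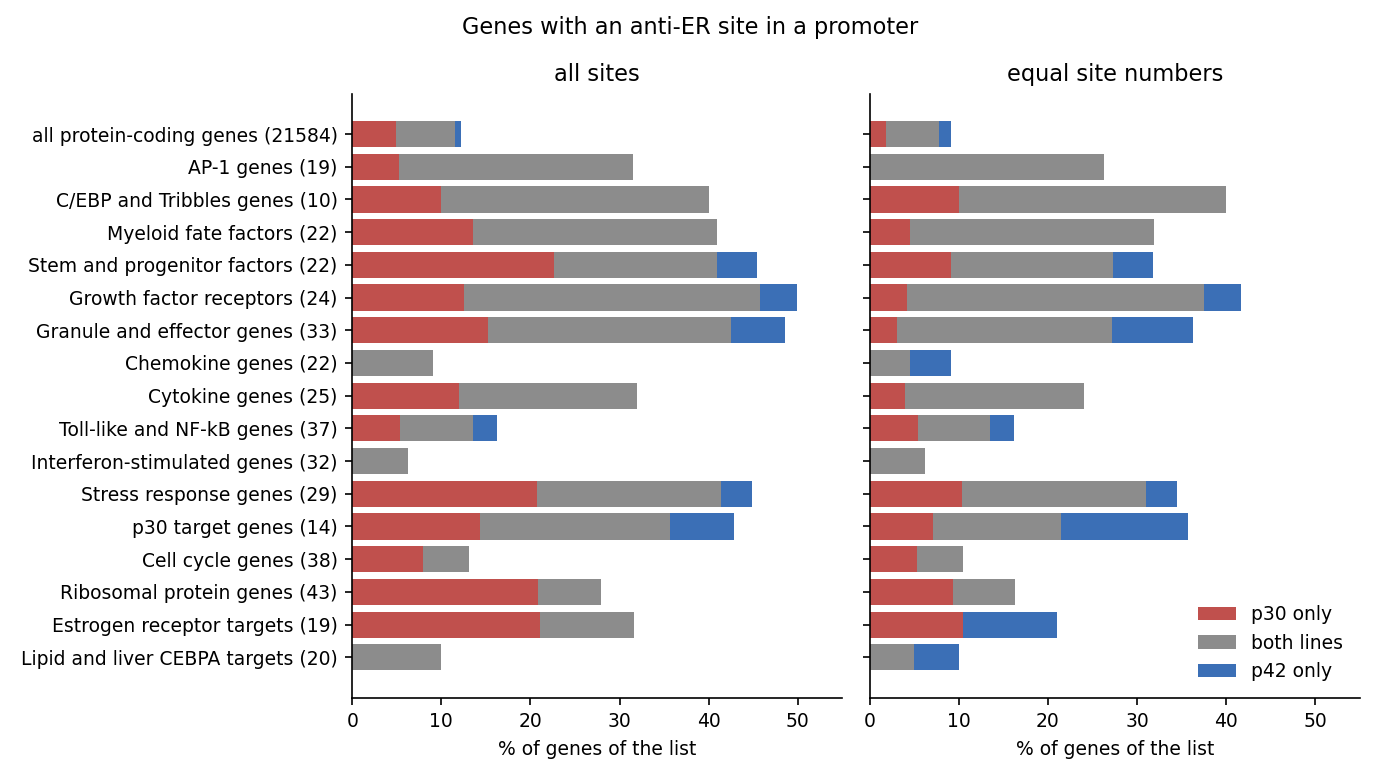
Members of each gene list with an anti-ER promoter site in both lines, in p30 cells alone or in p42 cells alone, as a percent of the list, beside all protein-coding genes (6.63%, 4.95% and 0.649%). Stem and progenitor factors (22.7%), estrogen receptor targets (21.1%), ribosomal protein (20.9%) and stress response genes (20.7%) hold the largest shares in p30 cells alone.

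Of the 10 C/EBP and Tribbles genes, 3 had a promoter site in both lines, 1 in p30 cells alone and 0 in p42 cells alone. The p30-only member was Cebpa itself, with a fold of 11.3 at 189 bp upstream of its start (chr7:34818392-34818716). The Cebpa locus (chr7:34818718-34821353, plus strand) had 7 p30 sites within 50 kb, 4 of them p30 only, and 6 p42 sites, 3 of them p42 only. Its strongest site, 8044 bp downstream of the start, was shared, with a fold of 21.4 in p30 and 14.4 in p42 cells. No summit fell in an exon of Cebpa, the gene whose coding sequence the transgenes carry. The shared members were Ddit3 (36 and 18), a stress-induced partner that blocks C/EBP binding, Cebpg (27.6 and 11.6), and Trib3 (15.6 and 7.68).

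Of the 22 myeloid fate factors, 6 had a promoter site in both lines, 3 in p30 cells alone and 0 in p42 cells alone. Nfe2, a factor of megakaryocytes and erythroid cells, had a fold of 72.5 in p30 and 54.5 in p42 cells. Tfec (26.5 and 27.1), Nfil3 (20.7 and 21.2) and Spi1 (18.1 and 8.64), which encodes PU.1, were shared too. The members with a promoter summit in p30 cells alone were Klf6 (13.1), whose site nonetheless overlapped a p42 site, Id1 (4.83) and Rara (2.82), the retinoic acid receptor gene.

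Of the 22 stem and progenitor factors, 5 (22.7%) had a promoter site in p30 cells alone, 4 in both lines and 1 in p42 cells alone. Mycn (7.56), Gata2 (7.35), Ikzf1 (5.25), Lyl1 (3.99) and Etv6 (3.36), all transcription factors of immature blood cells, had a promoter site in p30 cells alone. Meis1 (27.9 and 15.6), Tal1 (24.6 and 22.2), Hhex (14.2 and 8.64) and Runx1 (7.21 and 3.69) had one in both. Erg had its promoter summit in p42 cells alone (9.36), and that site overlapped a p30 site. All 5 shared promoter pairs of the list were higher in p30 cells, beside 77.4% of the 1435 pairs of all genes.

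Of the 24 growth factor receptor genes, 8 had a promoter site in both lines, 3 in p30 cells alone and 1 in p42 cells alone. Il6ra (73.8 and 36.8), Csf2rb (26.9 and 11.3), the common chain of the GM-CSF and interleukin-3 receptors, Ifngr2 (20.6 and 18.0) and Il3ra (15.8 and 5.52) were shared. Csf2rb2 (6.37), Ifngr1 (4.83) and Csf3r (4.49), the G-CSF receptor gene and a classical CEBPA target, had one in p30 cells alone, and Il6st (7.68), the gp130 chain, in p42 cells alone. All 8 shared promoter pairs were higher in p30 cells, as were 77.4% of the pairs of all genes. Kit, the stem cell factor receptor, had no promoter site and a single site within 50 kb, in p42 cells (6.96).

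Of the 33 granule and effector genes of neutrophils and monocytes, 9 had a promoter site in both lines, 5 in p30 cells alone and 2 in p42 cells alone. Hp, which encodes haptoglobin, had a fold of 75.2 in p30 and 37.2 in p42 cells, and Cd33 25.3 and 15.6. The order was the other way at Camp (15.3 and 30.7), the cathelicidin gene, at Lcn2 (10.4 and 16.8) and at S100a8 (7.35 and 19.7). Ltf (11.3), the lactoferrin gene, Elane (5.46), the neutrophil elastase gene, Ncf4 (4.12) and Itgb2 (3.57) were among those with a promoter site in p30 cells alone. Ngp (6.72) and Mmp8 (4.89), genes of secondary granules, had one in p42 cells alone. At equal site numbers this list had more members in p42 cells alone than in p30 cells alone.

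One-line promoter sites were few in the inflammatory lists. Of 22 chemokine genes, Ccl3 (20.8 and 12.9) and Ccl6 (4.56 and 4.80) had a promoter site in both lines and none in 1 line alone. Of 25 cytokine genes, 5 had one in both lines, among them Tnfsf14 (36.4 and 28.2), Il1rn (33.6 and 27.1), the interleukin-1 antagonist, Il12a (12 and 11) and Il23a (10.5 and 10.1). Il6 (7.48), Csf3 (4.83) and Il1a (4.20) had one in p30 cells alone, 12% of the list (4.17 to 30). This interval holds the 4.95% of all genes, as does that of the chemokine genes (0 to 14.9). With equal site numbers, 1 cytokine gene (4%, beside 1.83% of all genes) had one in p30 cells alone. Within 50 kb of the cytokine genes, 23 of 107 p30 sites were p30 only, 21.5% (14.8 to 30.2), beside 41.2% near all genes, and their median fold was 8.37 beside 6.93. Of the p42 sites there, 10.4% (5.76 to 18.1) were p42 only, an interval that holds the 16.2% near all genes.

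Of the 37 Toll-like receptor and NF-kB genes, 3 had a promoter site in both lines, namely Zfp36 (22.3 and 11.4), Tnfaip3 (6.65 and 4.56) and Irak3 (6.72 and 8.02), all brakes on inflammatory signalling. Nfkbiz (9.76) and Irak2 (6.30) had a promoter summit in p30 cells alone, of which that of Irak2 overlapped a p42 site. Tlr4 (5.04), the LPS receptor gene, had one in p42 cells alone. Within 50 kb of a Tlr4 start, 3 of the 4 p42 sites were p42 only and the single p30 site, with a fold of 7.77, was shared.

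Sites near interferon-stimulated genes had the highest one-line share among the 16 lists in both lines. Of the 32 members, 2 had a promoter site in both lines, among them Gbp2 (14.4 and 20.4), and none had one in 1 line alone. Within 50 kb, 42 of 77 p30 sites were p30 only, 54.5% (43.5 to 65.2) beside 41.2% near all genes, and 15 of 50 p42 sites were p42 only, 30% (19.1 to 43.8) beside 16.2%. Their median folds were 6.30 and 6.47, beside 6.93 and 7.20 near all genes. Mx1, an antiviral GTPase gene, had 4 sites in p30 cells (best fold 8.33) and 0 in p42 cells. Gbp3 (7.20), Oasl1 (6.14) and Irf7 (2.88) had sites in p42 cells alone. The named genes do not give the balance of the list. Members with sites in p30 cells alone within 50 kb outnumbered those with sites in p42 cells alone by 3. At equal site numbers this difference was -1. Over all genes, 12.5% had sites in p30 cells alone and 2.32% in p42 cells alone.

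Of the 29 stress response genes, 6 had a promoter site in both lines, 6 in p30 cells alone and 1 in p42 cells alone. Herpud1 (57.8 and 29.8), a gene of endoplasmic reticulum-associated degradation, and Hmox1 (20.5 and 12.7), which encodes heme oxygenase, were shared together with Ddit3 and Trib3. Dnajb9 (8.20), Xbp1 (7.43), Sesn2 (5.68), Sqstm1 (4.70), Hspa5 (3.57) and Hsp90b1 (3.33), chaperones and regulators of the unfolded protein and stress responses, had one in p30 cells alone. Atf5 (3.6) had one in p42 cells alone. Over 7 shared promoter pairs of this list the median log2 ratio of p30 to p42 fold was 0.96, with 6 higher in p30 cells, beside 0.45 over 1435 pairs of all genes.

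Of the 19 AP-1 genes, 5 had a promoter site in both lines and 1, Atf3 (3.50), in p30 cells alone. Mafg had a fold of 107 in p30 and 63.3 in p42 cells, followed by Maff (13.0 and 14.4), Fosb (9.46 and 5.28) and Jdp2 (7.99 and 8.16). Mafk had no promoter site and 2 p30-only sites within 50 kb (best fold 15.1). Fos and Jun, which pair as an AP-1 dimer, had no promoter site in this count.

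More ribosomal protein genes had a promoter site in p30 cells alone than in both lines, in part through the longer p30 list. Of 43 such genes, 9 (20.9%) had one in p30 cells alone, 3 (6.98%) in both lines and 0 in p42 cells alone. Over all genes these shares were 4.95%, 6.63% and 0.649%. With equal site numbers 4 (9.3%) had one in p30 cells alone and 3 in both lines, beside 1.83% and 5.94% of all genes. Rpl23 (9.88), Rpl3 (7.35), Rps24 (6.93) and Rpl18 (5.98) led the members of p30 cells alone, and Rpl10a (13.9 and 10.4) those of both lines. Of 38 cell cycle genes, 3 (Rrm2 6.51, Ccnd2 6.09 and Cdc6 5.25) had one in p30 cells alone. This is 7.89% (2.72 to 20.8), an interval that holds the 4.95% of all genes. Mcm3 (37.0 and 8.72), a subunit of the replicative helicase, and Ccnd3 (15.0 and 9.39) had one in both lines.

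Among 14 genes described in earlier work as p30 or CEBPA targets, Wdr5 (11.7 and 10.2), a subunit of H3K4 methyltransferase complexes that p30 is known to contact, and Txndc5 (8.48 and 7.55) had a promoter site in both lines. Sox4 (3.66) had one in p30 cells alone and Set (6.13) in p42 cells alone. At Msi2, an RNA-binding protein gene, 10 p30 and 8 p42 sites were found within 50 kb of the gene, the best with a fold of 40.6 and 13.8. Nt5e, which encodes CD73, had 5 sites in each line, with 4 shared and best folds of 20.2 and 23.4. At Gata2, 2 of 4 p30 and 1 of 3 p42 sites were one-line sites.

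Of 19 estrogen receptor target genes, counted because the antibody binds a receptor fragment, 2 had a promoter site in both lines, 4 in p30 cells alone and 0 in p42 cells alone. At Esr1, the receptor gene, 4 of 5 p30 sites were p30 only and the single p42 site was shared (6.49 and 9.11), and no summit lay in an Esr1 exon. Of 20 lipid and liver genes that CEBP factors control in other tissues, Adipoq (23.9 and 30.7) and Pparg (4.83 and 9.2) had a promoter site in both lines. Both were higher in p42 cells, where the start of Adipoq also had an H3K27ac peak (fold 3.07) that p30 cells lacked.

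The sites of 1 line with an anti-CEBPA site in that line alone were also counted near genes. Over all genes, 1650 (7.64%) had such a p30-only site within 50 kb and 1788 (8.28%) such a p42-only site. Of the 22 chemokine genes, 9 (40.9%, 23.3 to 61.3) lay near such a p42-only site, among them Cxcl9, Cxcl10, Ccl3, Ccl6 and Ccl9, and 2 (Ccl2 and Ccl7) near a p30-only one. Because chemokine genes stand in clusters, the 9 genes rested on 3 sites. Of the 37 Toll-like receptor and NF-kB genes, 10 (27%, 15.4 to 43.0) lay near 9 such p42-only sites, among them Nfkbiz, Tlr4, Tnip1, Nfkb2, Nfkb1 and Ikbkb, and 4 (Rela, Ticam1, Bcl3 and Ikbkg) near a p30-only one. With anti-CEBPA lists of equal length the p42-only counts were 6 chemokine and 7 Toll-like receptor and NF-kB genes, beside 949 of all genes, and the p30-only counts 2 and 6, beside 2376. Both lists had more p42 sites within 50 kb per gene, 1.68 and 3.43, than all genes (0.738). Per site, 3 of 37 p42 sites near chemokine genes and 9 of 127 near Toll-like receptor and NF-kB genes were of this kind. Near all genes it was 917 of 15925.

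For the other lists the counts of the 2 lines were closer, and some p30-only shares also stood above the 7.64% of all genes. Of the 32 interferon-stimulated genes, 7 (21.9%, 11 to 38.8) lay near such a p30-only site and 6 (18.8%) near such a p42-only one. Of the 25 cytokine genes, 7 (28%, 14.3 to 47.6) lay near such a p30-only site, among them Tnf, Tnfsf14, Csf2 and Lif. Another 4 (16%) lay near a p42-only one (Tnf, Ifnb1, Il6 and Il18), with Tnf near both. Of the 22 myeloid fate factors, 6 (27.3%, 13.2 to 48.2) lay near a p30-only site, namely Klf2, Egr1, Zeb2, Irf8, Rara and Stat3. Near a p42-only one lay 4 (18.2%), namely Mitf, Gfi1, Klf6 and Zeb2. These lists also had more p30 sites within 50 kb per gene, 2.41, 4.28 and 4.55, than all genes (1.04). Of the 33 granule and effector genes, S100a8, S100a9, Ltf, Itgb2 and Cd177 were near a p42-only site, and Cxcr2, Mpo, Itgb2 and Fcgr3 near a p30-only one. Cebpz, Cebpa and Cebpg were near a p42-only site, and Ddit3 near a p30-only one.

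Some regions gathered one-line sites, and they were chosen after their values were seen. In 1 Mb windows the median was 5 p30-only and 1 p42-only site, and 26 of 2573 windows held 20 or more p30-only sites. Filip1l and its flanks (chr16:57123135-57471279) held 26 p30 sites, of which 17 were p30 only, and 9 p42 sites, all shared. From Il1r2 to Il18rap, the interleukin-1 receptor cluster (chr1:40113239-40590865), 17 of 31 p30 sites were p30 only and 1 of 15 p42 sites p42 only. The immunoglobulin heavy chain locus (chr12:113218450-115973713) held 62 p30-only sites of 136 and 5 p42-only sites of 80. Its p30-only share of 45.6% (37.5 to 54.0) was near the 42.9% of the whole list, and its p42-only share of 6.25% (2.7 to 13.8) was below the 15.9%. The Hist1 histone gene cluster (chr13:21899933-24118834) held 36 of 63 and 7 of 34. Among single genes, Pde4d, a phosphodiesterase gene, had the most p30-only sites within 50 kb of its starts (12 of 29), and Chd7, a chromatin remodeller gene, 6 p42-only sites of 11, as many as Pde1a (6 of 6).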

How the data were processed

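Anti-ER chromatin of 1 library per line was sequenced. Per the labels, the authors trimmed reads with Trim Galore 0.6.6, aligned them with Bowtie2 to mm39, removed duplicates with Picard and called peaks with MACS2 against input at a q-value limit of 0.05. The deposited lists give each peak's fold enrichment over input at the summit (a ratio) and its −log10 p-value and −log10 q-value. The anti-CEBPA lists do not state that limit. For both histone marks the libraries of a group were pooled before peak calling. No deposited comparison columns were used, and nothing gives the depth of the libraries.

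Sites were ranked by −log10 p. Overlaps, distances, GENCODE vM39 genes, motif letters and Wilson intervals were computed with Python 3.11.15, numpy 2.4.6, pandas 2.3.3 and pysam 0.24.0. Overlap counting was tested on simulated lists, where all 15000 planted sites of 23210 were recovered. With 1 library per line no test was made. Members, gene lists and tests were chosen with earlier results of these data known. Named sites are the 8 best-ranked of each class outside chromosome 18, 1 per nearest gene within 100 kb. Named list members are up to 4 of each promoter class, best-ranked first, and where fewer exist up to 4 one-line members within 50 kb. The loci Cebpa, Esr1, Msi2, Nt5e and Gata2 were named as well. All but 2 list names matched an annotated gene. Other names were chosen after their values were seen. Some genes that these rules name are not reported here.

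Alternatives were other overlap rules, stricter q-values, equal site numbers, promoters of 2500 bp, distances of 100 kb, motif windows of 100 and 400 bp, equal mark and anti-CEBPA lists, and comparison among sites of like rank (bins of 10% of a list). Values at like rank are unweighted means over the 9 bins in which both one-line classes held at least 20 sites. A bin with few strong sites therefore counts as much as one with many weak sites.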

Additional observations from a re-analysis of the deposited data

Results flagged for a closer look

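Peaks outside the chromosomes compared were seen in both anti-ER lists and were used in no comparison. The p30 list held 54 peaks on chromosome Y and the p42 list 38, with median folds of 6.62 and 6.36. Unplaced scaffolds held 37 peaks in the p30 list and 36 in the p42 list, with median folds of 3.73 and 3.48. These 4 counts stand here because they are peaks outside the chromosomes compared, above the limit that a count of 0 allows. The study's reporting summary lists HPC-7 as female and states that its cell lines were not authenticated. Given that label, the chromosome Y peaks are not read as binding here. Their origin was not tested.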

How the results depend on the processing

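No paired analysis was possible because each anti-ER list came from 1 library and the mark lists were pooled, so replicate numbers carry no value here. For the same reason leaving out a replicate could not be done, and no difference has a replicate check. The depth of the libraries, the cells and the isoform cannot be told apart.

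With equal site numbers by p-value, 6247 sites were p30 only and 6108 p42 only, and 73.1% of p30 and 73.7% of p42 sites were shared. By fold, a ranking chosen after seeing the data, the values were 6404, 6270, 72.4% and 73%. The shared share of p30 and p42 sites was 57.6% and 85.7% with q under 1e-05 in both lists, 59.4% and 86.4% with that limit against all sites of the other list, 53.4% and 78.1% with reciprocal overlap of 50%, 56% and 81.9% with summits within 100 bp, and 58.1% and 84.8% with gaps of up to 500 bp.

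Genes with a promoter site in p30 cells alone numbered 1764 with promoters of 2500 bp and 395 with equal site numbers, and those in p42 cells alone 269 and 288. Equal site numbers left 8 lists with more p30-only than p42-only promoter members. The p30-only minus p42-only count of granule and effector promoter members turned to -1 at 2500 bp and to -2 at equal numbers. At equal numbers it also turned to -1 for promoter members among p30 target genes, and to -1 for members within 50 kb among interferon-stimulated and among ribosomal protein genes.

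Class differences below are in percentage points. The promoter share of p30-only minus p42-only sites, 3.51 as reported, was 4.32 at 2500 bp, 1.36 with equal site numbers and 4.37 at like rank. CEBP letters in shared minus p30-only sites, 15.6 as reported, came to 13.8 with equal numbers and 9.45 at like rank. In shared minus p42-only sites, 11.5 as reported, they came to 13.3 with a 100 bp window, 13.4 with equal numbers and 1.75 (-1.19 to 4.7) at like rank. RUNX letters in p30-only minus p42-only sites, 2.92 as reported, came to 1.31 with a 100 bp window and 4.36 at like rank.

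In own line minus other line, both lines are read at the same sites, so the value at like rank only gives each bin equal weight. Anti-CEBPA at p30-only sites, -6.61 as reported, turned to 4.36 with anti-CEBPA lists of equal length. It was -2.85 with equal site numbers and -0.235 at like rank. At p42-only sites it was 31.7, and 14.6 with anti-CEBPA lists of equal length and 47.6 at like rank. H3K27ac was 1.73 at p30-only and 13.3 at p42-only sites of like rank. H3K4me1 at p30-only sites was 5.38 with lists of equal length and 7.49 at like rank. At p42-only sites, 2.68 as reported, it was 4.03 and 6.91, and turned to -0.0491 with equal site numbers. With anti-CEBPA lists of equal length, chosen after seeing the data, 1717 p30-only and 699 p42-only sites had anti-CEBPA in their own line alone. The causes of these changes were not tested. Of the other values computed under an alternative, 28 main values and 46 list values stayed close to those reported, and 21 list values moved without turning.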
